A study of Homo sapiens with 23 samples.

Results

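The nuclear genes that encode subunits of the oxidative phosphorylation (OXPHOS) machinery were examined for histone acylation at their promoters in SW480 cells, which were derived long ago from a human colorectal adenocarcinoma. Members were the GENCODE 44 protein-coding genes of the autosomes and X whose symbol begins with NDUFA, NDUFB, NDUFC, NDUFS or NDUFV and a digit, with UQCR, with COX4 to COX8 or with ATP5, together with SDHA, SDHB, SDHC and SDHD. The rule returned 89 of 19970 genes and used no measured value. By symbol, 39 belong to complex I, 4 to complex II, 9 to complex III, 17 to complex IV and 20 to complex V. NDUFA4 is counted with complex I by its name, although its product is now placed in complex IV. The readthrough genes NDUFC2-KCTD14 and ATP5MF-PTCD1 begin within 30 bp of NDUFC2 and ATP5MF, so that each of these pairs repeats nearly the same window.

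The study asked whether the short-chain acyl marks propionyl (pr) and butyryl (bu) lie elsewhere on chromatin than acetyl (ac) at the same lysine, and what the fatty acids that feed them do. Chromatin immunoprecipitation with sequencing (ChIP-seq) was performed with antibodies to H3K18 and H4K12 carrying each acyl group. H3K18pr, H4K12pr, H3K18ac and H4K12ac were profiled in SW480 cells given 10 mM sodium propionate (NaPr). H3K18bu, H4K12bu, H3K18ac and H4K12ac were profiled in cells given 1 mM sodium butyrate (NaBu), and H3K18ac and H4K12ac in untreated cells. Each of these 10 groups held 2 libraries, giving 20 immunoprecipitated libraries, and each condition had 1 input library of sheared chromatin. Nothing in the labels states that the 2 libraries of a group came from separate cultures. The p-values below therefore measure only the spread between libraries of a group, pooled over all 10 groups. All groups derive from a single line, and no untreated library was made with a propionyl or butyryl antibody.

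OXPHOS couples the oxidation of NADH and succinate to the synthesis of ATP. Complex I (NADH dehydrogenase) and complex II (succinate dehydrogenase, which is also an enzyme of the citric acid cycle) pass electrons to ubiquinone. Complex III (cytochrome bc1) passes them to cytochrome c and complex IV (cytochrome c oxidase) to oxygen. Complex V, the ATP synthase, uses the proton gradient that the others build. Most subunits are encoded in the nucleus by genes active in nearly all cells, and butyrate oxidised in mitochondria is a main fuel of the colonic epithelium.

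The measured value was the presence and extent of the authors' peaks, here called regions. A promoter was the window reaching 1 kb to either side of the start of the MANE Select transcript (the reference transcript agreed by 2 annotation groups). A promoter held a region when at least 1 bp was covered, and the bp covered in the window was used for all tests. Both values record where signal passed the authors' threshold, and neither measures the amount of signal.

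Lists differed in length between libraries, from 8158 regions (H4K12bu replicate 2) to 208823 (H4K12ac untreated replicate 1), with a median of 95559. Median region width was 460 to 513 bp in the 4 propionyl lists and 246 to 337 bp in the 4 acetyl lists of NaPr cells. List names carry run tags, which place the propionyl libraries in a run of their own, the NaPr and untreated acetyl libraries in another and all NaBu libraries in the last. In the comparison of propionyl with acetyl libraries, and in that of NaBu with untreated cells, the run cannot be told apart from the groups. Butyryl and acetyl libraries of NaBu cells shared a run, as did acetyl libraries of NaPr and untreated cells. Over 19970 promoters, 14 of the 20 libraries correlated best with their own replicate. H3K18ac NaPr replicate 1 stood apart, with Pearson's r of 0.925 to H4K12ac untreated replicate 1 and of 0.734 to its own replicate. For comparisons that use it, the main count of limma calls is given with and without it. Most other values, including those of single genes, are given only with it. H3K18ac NaPr replicate 2 was closest to H3K18ac untreated replicate 2 (0.769). The H4K12ac NaBu replicates correlated by 0.719 with each other. Replicate 1 was closer to H3K18ac NaBu replicate 2 (0.769) and replicate 2 to H3K18bu replicate 1 (0.778). H3K18bu replicate 1 and H4K12bu replicate 1 were closest to H4K12ac NaBu replicate 2. H4K12ac NaBu replicate 2 was short, with 11680 regions against 88658 in its replicate. Of 8 markers of colorectal epithelium, 3 to 8 had a region in each library, CLDN4 and KRT18 in all 20. Of 12 markers of other cell types, 0 to 6 did, and PTPRC, ALB, APOA2 and DCN had none in any. Not all markers followed this division. COL1A1 was covered in 11 libraries and SYP in 10, and the epithelial marker LGALS4 in only 3.

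Promoter sequences are shown for 7 members on which the results below turn, the paralogs COX6A1 and COX6A2, the paralogs COX8A and COX8C, and UQCRC1, UQCR10 and NDUFA11, whose coverage differed between groups. Each line gives the 250 bases upstream of the RefSeq start on the strand of the gene in GRCh38.p14, 5′ to 3′. Capitals mark matches, on either strand, to CCGGAAG (the core bound by ETS factors including the GABP regulator of respiratory genes), GGGCGG (the GC box of SP1) or TATAAA (the TATA box).
COX6A1 (chr12:120437863-120438112, plus strand): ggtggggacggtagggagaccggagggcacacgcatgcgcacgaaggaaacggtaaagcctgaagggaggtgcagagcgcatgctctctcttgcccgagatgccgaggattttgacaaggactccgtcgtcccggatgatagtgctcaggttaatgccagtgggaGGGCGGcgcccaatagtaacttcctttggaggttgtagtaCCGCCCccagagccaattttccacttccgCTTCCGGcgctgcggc
COX6A2 (chr16:31428361-31428610, minus strand): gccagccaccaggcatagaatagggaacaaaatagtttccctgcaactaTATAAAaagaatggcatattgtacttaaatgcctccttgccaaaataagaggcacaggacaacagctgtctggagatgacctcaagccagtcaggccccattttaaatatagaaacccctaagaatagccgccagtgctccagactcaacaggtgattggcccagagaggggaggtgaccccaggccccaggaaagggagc
COX8A (chr11:63974370-63974619, plus strand): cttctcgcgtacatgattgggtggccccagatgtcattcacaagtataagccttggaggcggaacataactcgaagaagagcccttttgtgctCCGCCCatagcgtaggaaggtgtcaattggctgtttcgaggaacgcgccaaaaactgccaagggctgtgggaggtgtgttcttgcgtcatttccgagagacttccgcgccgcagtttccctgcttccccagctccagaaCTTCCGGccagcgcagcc
COX8C (chr14:93346932-93347181, plus strand): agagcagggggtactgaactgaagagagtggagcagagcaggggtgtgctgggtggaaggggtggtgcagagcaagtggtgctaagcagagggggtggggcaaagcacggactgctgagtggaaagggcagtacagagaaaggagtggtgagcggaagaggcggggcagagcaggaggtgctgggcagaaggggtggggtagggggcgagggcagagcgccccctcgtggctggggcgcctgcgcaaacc
UQCRC1 (chr3:48609647-48609896, minus strand): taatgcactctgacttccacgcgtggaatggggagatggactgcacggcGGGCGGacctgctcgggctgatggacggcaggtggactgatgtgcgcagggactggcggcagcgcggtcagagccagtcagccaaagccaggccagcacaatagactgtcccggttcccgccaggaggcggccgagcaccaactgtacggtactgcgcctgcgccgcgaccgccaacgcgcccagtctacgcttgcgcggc
UQCR10 (chr22:29767119-29767368, plus strand): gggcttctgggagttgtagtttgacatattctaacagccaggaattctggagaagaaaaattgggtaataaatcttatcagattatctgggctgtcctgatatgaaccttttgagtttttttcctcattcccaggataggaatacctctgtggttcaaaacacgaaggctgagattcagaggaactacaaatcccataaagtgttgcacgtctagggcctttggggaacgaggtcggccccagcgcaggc
NDUFA11 (chr19:5903791-5904040, minus strand): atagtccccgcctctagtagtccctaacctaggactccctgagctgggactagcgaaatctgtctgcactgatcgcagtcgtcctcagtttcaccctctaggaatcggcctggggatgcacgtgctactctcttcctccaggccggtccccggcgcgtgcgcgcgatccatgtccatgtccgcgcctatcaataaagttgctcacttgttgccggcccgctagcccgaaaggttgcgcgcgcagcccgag
COX6A1 and COX8A, which are expressed in most tissues, both held an ETS core close to the start and at least 1 GC box. COX6A2, the heart and skeletal muscle paralog, held TATAAA far upstream of the start and neither of the others, and COX8C, a testis paralog, held none of the 3. UQCRC1 held 1 GC box, UQCR10 and NDUFA11 also held none, so these letters did not divide covered from uncovered promoters among the sequences shown.

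A RefSeq promoter of 300 bases (250 before to 50 after the start) lay within 100 bp of the window centre for 66 members and 12984 other genes. The ETS core was found in 19 members (28.8%) and in 15.4% of the others. GC boxes were found in 63.6% of members and 61.8% of others, and TATAAA was found in 9.09% against 9.80%. Members were CpG-rich (at least 50% GC and an observed over expected CpG ratio of at least 0.6) in 81.8% of cases against 67.5% of others. A protein-coding start on the opposite strand lay within 1 kb of 25 members (28.1%), as at NDUFA1 beside RNF113A, SDHD beside TIMM8B and ATP5PF beside GABPA, compared with 9.44% of other genes.

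OXPHOS promoters held a region more often than other protein-coding promoters in every immunoprecipitated library. The excess ranged from 8.92 percentage points (H4K12bu replicate 2) to 31.2 (H4K12pr replicate 1), with a median of 24.8 over 20 libraries. In untreated cells, 82 of 89 members held an H3K18ac region in each replicate (92.1% against 66.6% and 70.4% of others). For H4K12ac the counts were 83 and 84 (93.3% and 94.4% against 65.6% and 65.7%). Almost all OXPHOS promoters were therefore covered in untreated cells at either histone site.

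In NaPr cells, H3K18pr regions lay at 74 and 60 members (83.1% and 67.4% against 56.9% and 50.2% of others). H4K12pr regions lay at 84 and 77 (94.4% and 86.5% against 63.2% and 55.9%). H3K18ac regions lay at 85 and 71 members (95.5% and 79.8% against 67.9% and 56.9% of others), the first of these being the library that stood apart. H4K12ac regions lay at 46 in either replicate (51.7% against 34.6% and 27.5%). Under NaPr, H4K12ac was thus the sparsest of the 4 marks at these promoters, as it was at other promoters. H4K12pr reached most members.

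In NaBu cells, H3K18bu regions lay at 32 and 21 members (36% and 23.6% against 19.4% and 13.2% of others), and H4K12bu regions at 22 and 15 (24.7% and 16.9% against 11.1% and 7.94%). H3K18ac regions lay at 79 and 67 (88.8% and 75.3% against 61.1% and 45.8%), and H4K12ac regions at 55 and 28 (61.8% and 31.5% against 35.2% and 15.3%). The 4 butyryl lists covered 15 to 32 members, and the short H4K12ac NaBu replicate 2 list, with 28, fell within that range.

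Inputs showed the same direction. The untreated input list had regions at 28 members (31.5% against 18.8% of others), the NaPr input at 12 (13.5% against 7.78%) and the NaBu input at 7 (7.87% against 2.96%). When the 8158 strongest regions of each library were taken, the excess was 0.495 to 27.4 points with a median of 13.2, and was above 0 in 20 of 20 libraries. Among CpG-rich promoters alone, the excess was 3.47 to 22.0 points (54 members). Among promoters with no divergent neighbour it was 3.99 to 32 points, and among divergent promoters -5.54 to 24.2, above 0 in 19 libraries.

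**Figure D1:**
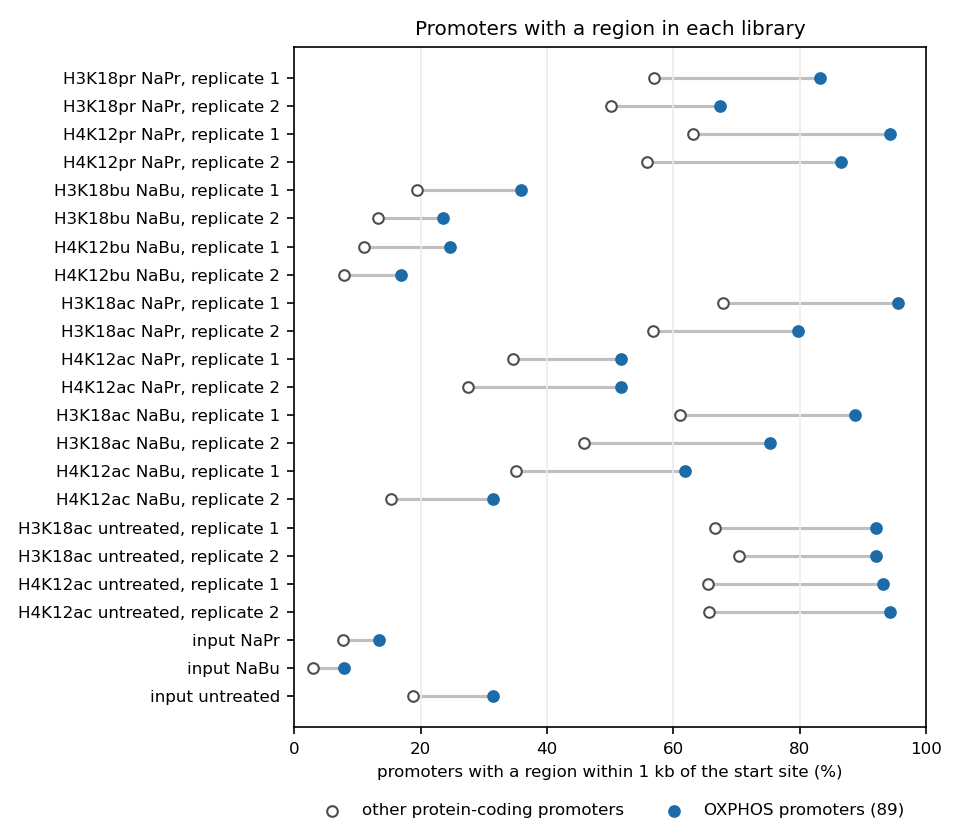
Percentage of promoters with a region within 1 kb of the start (horizontal axis) in each of 23 libraries, for 89 OXPHOS promoters (filled) and the other protein-coding promoters (open). The filled point lies to the right of the open point in every library, inputs included.

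Members held a region in a median of 14 of the 20 immunoprecipitated libraries, against 10 for other promoters. A core of 8 members (8.99%, against 3.03% of others) held a region in all 20. It included NDUFS1 and NDUFB9 of complex I and NDUFA4, which is counted with complex I by its name only. SDHC of complex II, UQCRH and UQCRC2 of complex III, and ATP5MC2, which encodes the proton-carrying c subunit of the ATP synthase, were also in this core. A further 28 members were covered in 15 to 19 libraries, 39 in 10 to 14 and 12 in 1 to 9. COX6A2 and COX7B2, both with tissue-restricted expression, were covered in none (2.25%, against 15.3% of others), although the COX7B2 window held a region in the NaPr and NaBu inputs. Input regions were found at 40 members in all, including NDUFS1, NDUFA4, NDUFB9 and UQCRC2 of the core. Shares of other promoters with input regions are given above per input list only.

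Coverage differed among complexes. Complex I promoters had the highest median number of libraries with a region (15, range 8 to 20), followed by complexes III and V (14 each), II (13.5) and IV (12, range 0 to 19). The median over members of the mean bp covered was 679 for complex I, 670 for II, 624 for III, 613 for V and 402 for IV. In untreated cells, all 39 complex I promoters were covered in each of the 4 acetyl libraries, as were all 4 of complex II, whereas complex IV reached 12 or 13 of 17. The members of complex IV without coverage were mostly the tissue-restricted paralogs described below. With the butyryl antibodies, complex IV promoters were covered in 3 and 2 of 17 cases for H3K18bu and 1 and 2 for H4K12bu, and complex I promoters in 19 and 11 and in 12 and 8 of 39. These complexes differ in number of genes and in the paralogs they include, and no test was made between them. They also differ in divergent promoters, with 13 of 39 in complex I and 1 of 17 in complex IV. Divergent members held H3K18bu regions in 52% and 44% of cases, and other members in 29.7% and 15.6%. NDUFA4, whose product is now placed in complex IV, was counted with complex I and was covered in all 4 butyryl libraries.

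**Figure D2:**
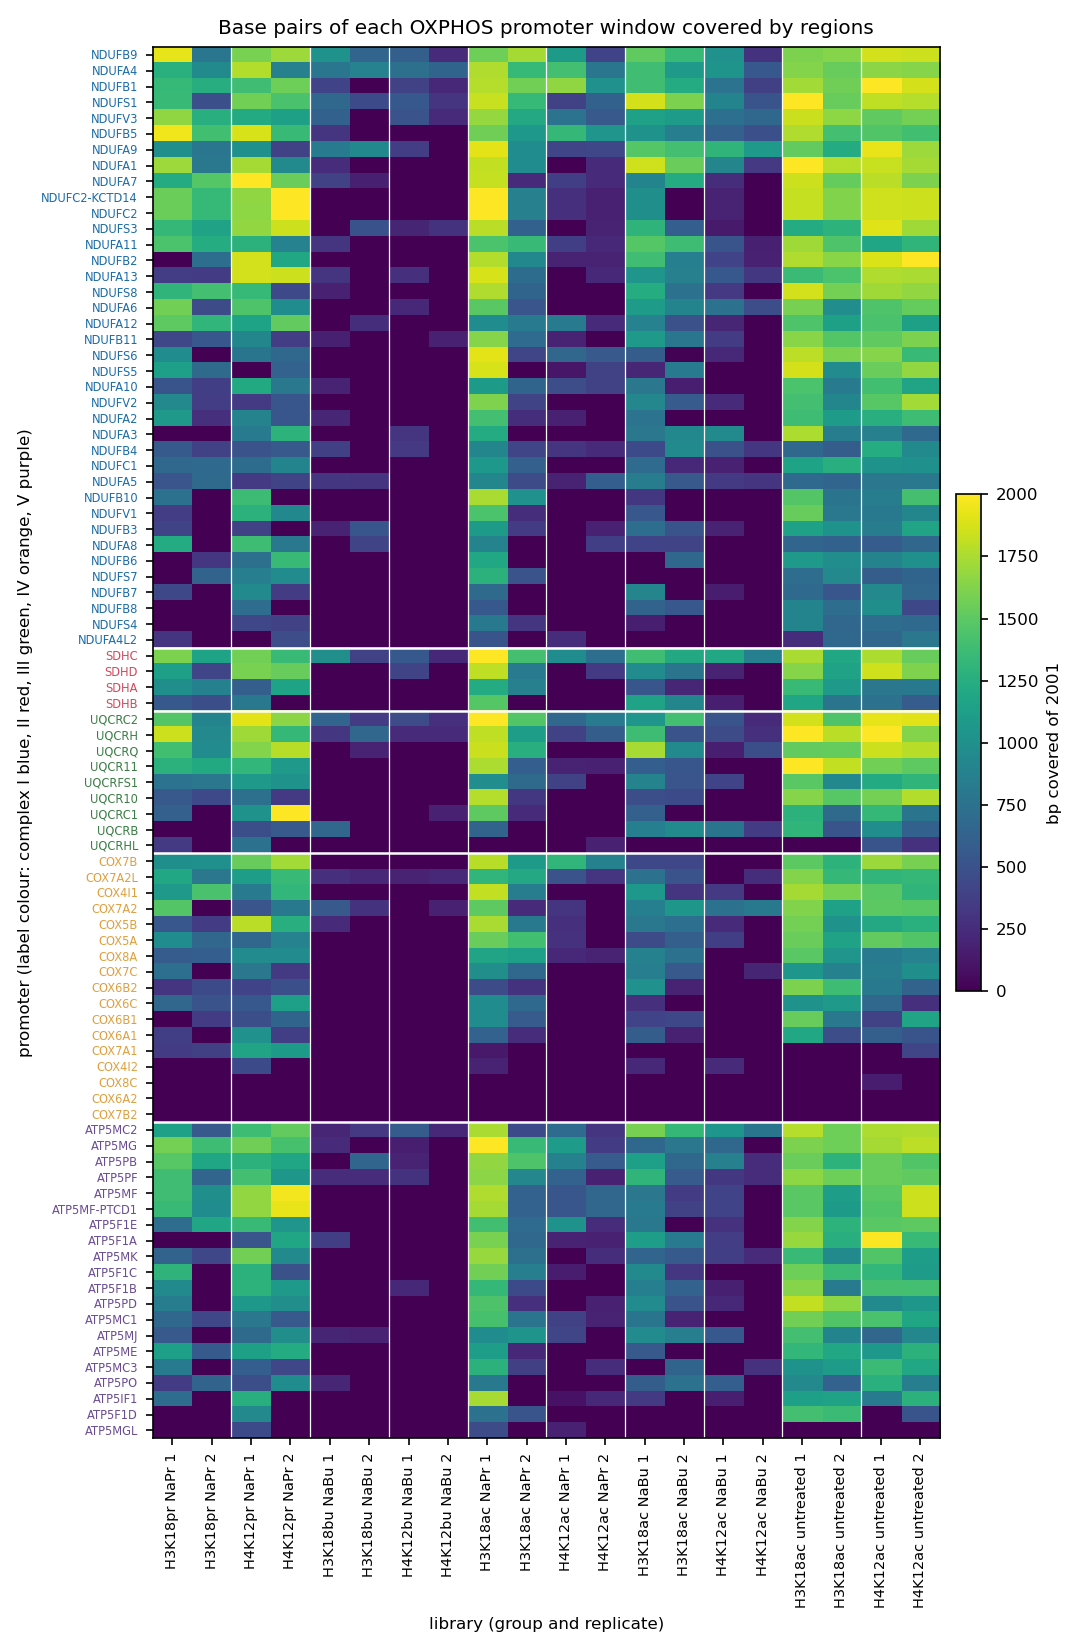
Bp covered of the window (colour) for the OXPHOS promoters reported here (rows, grouped by complex and ordered by mean) in each of 20 libraries (columns). Untreated H3K18ac and H4K12ac columns are bright over nearly all rows, butyryl columns are dark for most, and COX6A2 and COX7B2 are at 0 throughout.

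Regions formed shoulders on either side of the start, and the higher shoulder of members lay downstream in 7 of the 10 groups. In untreated cells, H3K18ac covered up to 89.3% of members at 200 bp downstream (mean of 2 libraries) and H4K12ac up to 86.5% at the same distance. At the start itself the values were 75.3% and 30.9%, so that H4K12ac dipped there far more than H3K18ac. H4K12pr peaked at 350 bp downstream with 75.8% of members and H3K18pr at 300 bp with 52.2%. The 2 butyryl marks and H4K12ac in NaBu were highest upstream, at 250 to 300 bp before the start, with 15.7% (H3K18bu), 10.7% (H4K12bu) and 23% (H4K12ac). For other promoters the highest coverage was 34.6% (H3K18pr), 36.9% (H4K12pr), 6.24% (H3K18bu) and 3.32% (H4K12bu). The untreated input was highest 100 bp upstream, at 19.1% of members and, 200 bp upstream, at 5.93% of others.

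**Figure D3:**
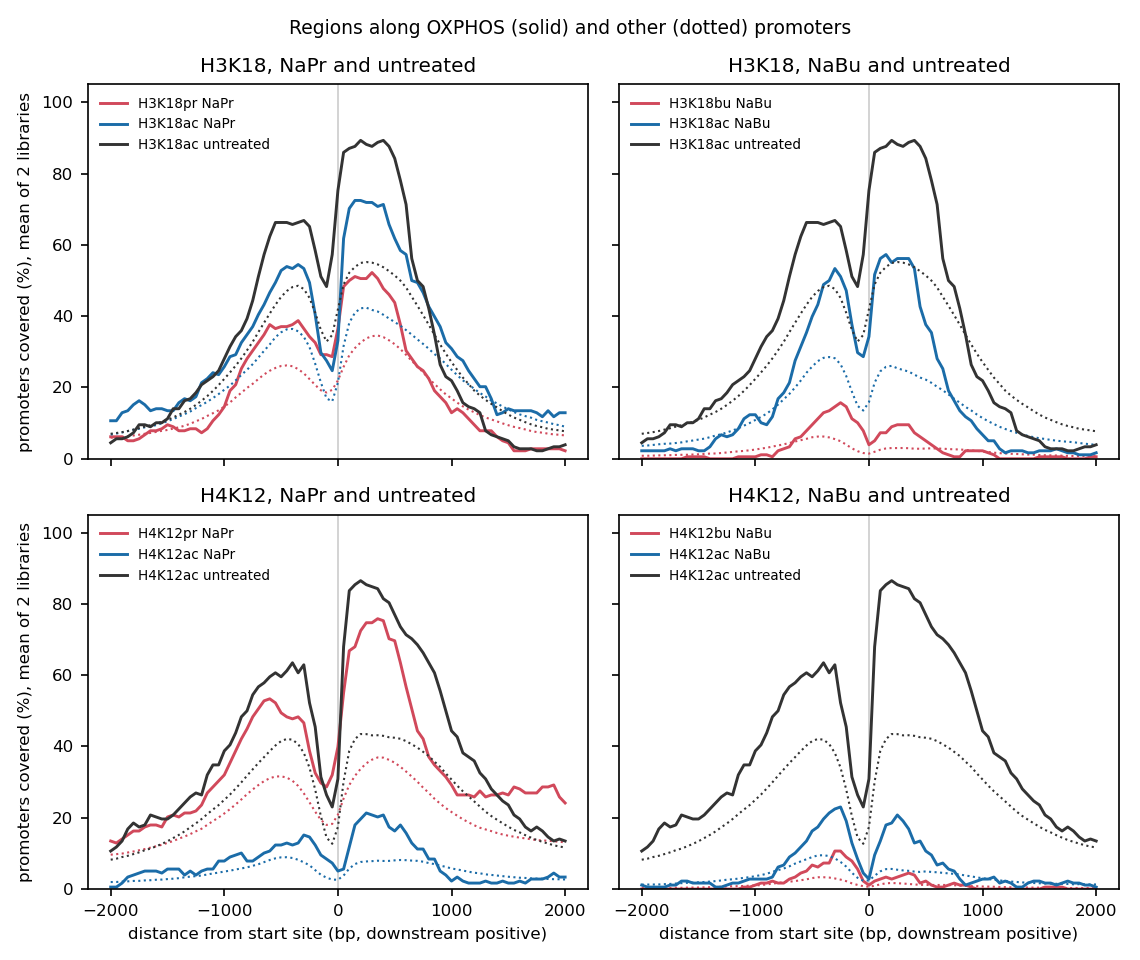
Percentage of promoters covered by a region (vertical axis, mean of 2 libraries) against distance from the start in bp, downstream positive, for OXPHOS (solid) and other (dotted) promoters. At OXPHOS promoters, untreated H4K12ac reaches 86.5%, H4K12pr 75.8% and H4K12ac in NaPr 21.3%.

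Complex II, the only complex with all its 4 subunits encoded in the nucleus, was followed in full. SDHA, the flavoprotein that binds succinate (window chr5:217320-219320), had 1357 and 1082 bp of untreated H3K18ac, 791 and 809 bp of untreated H4K12ac, 994 and 880 bp of H3K18pr, and 607 and 1158 bp of H4K12pr. It had no butyryl region and no H4K12ac region under either treatment. SDHB, the iron-sulphur subunit (chr1:17053032-17055032), had 1173 and 770 bp of untreated H3K18ac, 549 and 481 bp of H3K18pr and 805 and 0 bp of H4K12pr, and none with a butyryl antibody. Neither of these catalytic subunits carried a butyryl region. SDHC, a membrane anchor (chr1:161313381-161315381), was covered throughout, with 990 and 388 bp of H3K18bu and 548 and 226 bp of H4K12bu. SDHD, the other anchor (chr11:112085873-112087873), had 1597 and 1534 bp of H4K12pr against 0 and 339 bp of H4K12ac in the same cells, and 411 and 0 bp of H4K12bu.

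Paralog pairs separated by breadth of expression. For 8 of 9 pairs the broadly expressed paralog was covered in more libraries, COX4I1 in 13 against 4 for COX4I2 (induced in lung and by low oxygen), COX6A1 in 11 against 0 for COX6A2 and COX7B in 14 against 0 for COX7B2. COX8A was covered in 14 libraries and COX8C in 1, NDUFA4 in 20 and NDUFA4L2 (a target of hypoxia signalling) in 9. ATP5MG was covered in 17 and ATP5MGL in 3. UQCRH was covered in 20 and UQCRHL in 5. UQCRHL is a near-identical copy of UQCRH, and how reads were placed between such copies was not tested. The pair chosen as COX6B1 and COX6B2 differed from the rest. COX6B2, known from testis, was covered in 12 libraries with a mean of 402 bp, and COX6B1 in 11 with 388 bp.

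COX7A1, the muscle paralog of COX7A2, carried propionyl regions with few acetyl regions. It had 345 and 380 bp of H3K18pr and 1165 and 1088 bp of H4K12pr. Its acetyl values in NaPr were 138 and 0 bp for H3K18 and 0 in both replicates for H4K12, and it had none of any mark in NaBu and, in untreated cells, only 416 bp in H4K12ac replicate 2. The H4K12pr and H4K12ac libraries did not overlap, and the difference of 1126.5 ± 121 bp (SE) passed the test (limma, adjusted p = 7.24e-05). This SE pools the spread of all 10 groups. Several of them had 0 bp in both replicates at COX7A1, which lowers the SE and the p-value. For H3K18 the difference was 293.5 ± 121 bp and did not pass (adjusted p = 0.206). COX7A2 had 531 and 812 bp of H4K12pr and 310 and 0 bp of H4K12ac in NaPr, and unlike COX7A1 was well covered in untreated cells, with 1498 and 1479 bp of H4K12ac.

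**Figure D4:**
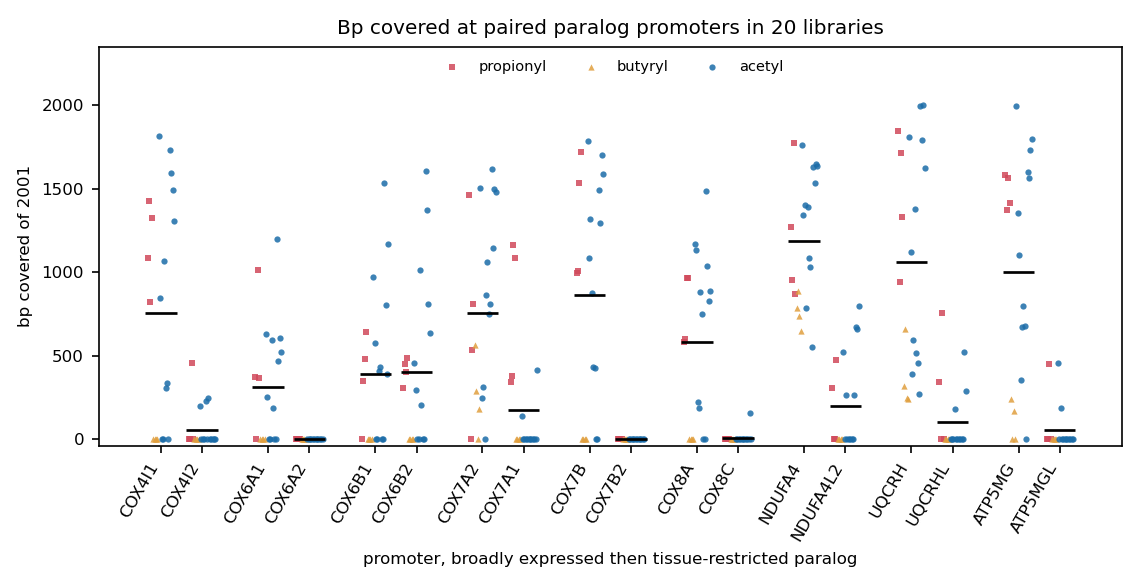
Bp covered of the window (vertical axis) in each of 20 immunoprecipitated libraries (points, shaped by mark) for 9 pairs of paralogs, with bars at the mean. The second paralog of each pair lies below the first except for COX6B2 (402 bp against 388 bp), and COX7A1 reaches over 1000 bp with the H4K12pr antibody only.

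H4K12 propionylation was compared with H4K12 acetylation in NaPr cells to ask whether the acyl marks occupy the same promoters. Of 87 members tested (those with a region in any immunoprecipitated library), 43 had more bp covered by H4K12pr and 0 fewer (49.4% of members, where 33.3% of 16926 promoters tested were called higher and 0.248% lower). The median difference was 760 bp over members and 444.5 bp over all promoters. Calls were spread over complexes, with 19 of 39 in complex I, 2 of 4 in II, 6 of 9 in III, 7 of 15 in IV and 9 of 20 in V.

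NDUFA13, an accessory subunit of complex I also known as GRIM-19 (chr19:19515225-19517225), had 1866 and 1845 bp of H4K12pr against 0 and 229 bp of H4K12ac, a difference of 1741 ± 277 bp (SE; adjusted p = 0.000578). UQCRQ, a small subunit of complex III (chr5:132865642-132867642), had 1628 and 1787 bp against 0 in both replicates (1707.5 ± 252 bp, adjusted p = 0.000369). NDUFS3, a core subunit of the hydrophilic arm of complex I, had 1678 and 1848 bp against 0 and 189 (1668.5 ± 309 bp, adjusted p = 0.00134). In each of these promoters the propionyl values exceeded the acetyl values by more than the spread between libraries. NDUFC2 and its readthrough gene, which share a window, had 1664 bp and the whole window against 273 and 180 bp at NDUFC2 (1606 ± 321 bp, adjusted p = 0.00206). UQCRC1, a core subunit of complex III whose promoter is shown above, had 1026 and 1997 bp against 0 in both (1511.5 ± 399 bp, adjusted p = 0.00985). NDUFA7 had the whole window and 1541 bp against 372 and 236 bp, and SDHD, given above, differed by 1396 ± 304 bp (adjusted p = 0.00332). The calls of UQCRC1 and NDUFA7 were lost when some single libraries were left out. Of the 43 members, 15 were called whichever of the 4 libraries was left out. The count of 43 fell whichever of these libraries was left out. Shares of all promoters are not given for those fits. Removing regions that lie over input regions gave 23 (20% of promoters).

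At 25 members (28.1%, against 18.4% of 19970 promoters), H4K12pr regions were present in both replicates and H4K12ac regions in neither, among them COX4I1, ATP5F1B (the catalytic beta subunit of the ATP synthase), NDUFV1, SDHA and UQCRC1, and the reverse was seen at 0 (0.586% of promoters). Bp covered did not overlap between the groups at 71 of 89 members, all higher in H4K12pr, against 46.9% of all promoters higher and 0.856% lower. When every list was cut to its 8158 strongest regions, 9 of 65 members tested were higher (9.09% of 8779 promoters), of which 7 were also called with the full lists. The 9 were ATP5MF, ATP5MF-PTCD1, COX7A2L, NDUFA1, NDUFC2, NDUFC2-KCTD14, NDUFV3, SDHC and SDHD. The wider regions of the propionyl lists move with this result, and their part in it was not tested.

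For H3K18, propionylation and acetylation in NaPr did not differ at any member by limma (0 of 87 called, 19 at an unadjusted p under 0.05), where 0.768% of all promoters were called higher and 2.22% lower in H3K18pr. The median difference was -271 bp over members and -115 bp over all promoters. This comparison rests on the H3K18ac library that stood apart. Without H3K18ac NaPr replicate 1, 2 members were higher and 0 lower (1.63% and 2.02% of promoters), and the median difference of members was 57.5 bp. Without replicate 2, 29 members were lower (25.1% of promoters) and their median was -621 bp. The direction for H3K18 therefore turned with the acetyl library used.

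The largest differences among members whose H3K18 values did not overlap were at ATP5F1A, NDUFB10 and NDUFB2. ATP5F1A, the alpha subunit of the ATP synthase, had 0 bp of H3K18pr in both replicates and 1598 and 675 bp of H3K18ac (-1136.5 ± 313 bp, adjusted p = 0.0619). NDUFB10 had 755 and 0 bp against 1749 and 1011 (adjusted p = 0.188), and NDUFB2 0 and 726 bp against 1767 and 933 (adjusted p = 0.0845). Propionyl regions in both replicates with no acetyl region were found at 0 members (0.576% of promoters), and the reverse at ATP5F1A, ATP5F1D and NDUFS4 (3.37%, against 4.64%). Bp covered did not overlap at 21 members with lower and 2 with higher H3K18pr (16.2% and 5.22% of promoters).

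The propionyl-minus-acetyl difference itself was tested between the 2 histone sites. It was lower at H3K18 than at H4K12 for 39 of 87 members and higher for 0, where 28.1% and 0.455% of promoters were called. The count was 16 without H3K18ac NaPr replicate 1 (14.5% of promoters) and 69 without replicate 2 (53.6%). The count fell from 39 without H3K18pr replicate 2 and without either H4K12ac NaPr replicate. At equal list lengths it was 4 lower and 1 higher (5.46% and 0.41%).

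Butyrylation was compared with acetylation in NaBu cells. H3K18bu covered fewer bp than H3K18ac at 12 of 87 members (13.8%) and more at 0, where 16.6% and 0% of promoters were called. The order of these shares turned with the measure, as given below. The median difference was -565.5 bp over members and -315.5 bp over all. Of the 12, 8 were in complex I, 2 in III and 1 each in IV and V.

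NDUFA1, an accessory subunit of complex I on X, had 251 and 0 bp of H3K18bu against 1853 and 1545 bp of H3K18ac (-1573.5 ± 332 bp, adjusted p = 0.00741). NDUFA11, whose promoter is shown above (window chr19:5902790-5904790), had 298 and 0 bp against 1473 and 1376 (-1275.5 ± 196 bp, adjusted p = 0.00188). It was the only 1 of the 12 called whichever library was left out. UQCRQ had 0 and 190 bp against 1742 and 951 (adjusted p = 0.00595), and ATP5MC2 214 and 329 bp against 1589 and 1336 (adjusted p = 0.0222). NDUFS1, the largest iron-sulphur subunit of complex I, kept 669 and 453 bp of H3K18bu against 1870 and 1609 bp (-1178.5 ± 267 bp, adjusted p = 0.0102). NDUFB2, NDUFB1 and NDUFB11 were the others named by size, with differences of -1123.5, -1109 and -843 bp. The count of 12 fell without either H3K18bu replicate or H3K18ac NaBu replicate 1, and rose without H3K18ac NaBu replicate 2. On a log2 scale it was 44 of 87 (34.4% of promoters) and with windows of 500 bp 38 of 87 (21.5%), both larger shares than that of all promoters.

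At 29 members (32.6%, against 22.8% of promoters), H3K18ac regions were present in both NaBu replicates and H3K18bu in neither, including SDHA, SDHB, SDHD, COX4I1 and ATP5F1B, and the reverse was seen at 0 (0.025%). Values did not overlap at 61 members (68.5%), all lower in H3K18bu (42.6% of promoters lower and 0.0501% higher). Equal list lengths left 4 of 65 members lower, against 5.85% of promoters, among them NDUFA1 and UQCRB, and 2 of them were also called with full lists. The H3K18bu lists were shorter (22059 and 22497 regions against 116459 and 60344), and the part of list length was not tested beyond this equal number.

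For H4K12bu against H4K12ac, 0 members passed limma's test (3 at an unadjusted p under 0.05), as did 0 of all promoters (0%). Without the short H4K12ac NaBu replicate 2, the count was still 0, with 0.331% of promoters lower. The largest differences among members that did not overlap were at NDUFA9 (360 and 0 bp against 1311 and 1073), COX7A2 (0 and 180 bp against 750 and 812) and SDHC (548 and 226 bp against 1190 and 864), each with an adjusted p of 1.0. H4K12ac regions without H4K12bu were found at 8 members (8.99%, against 4.76% of promoters) and the reverse at 0 (0.0701%). Values did not overlap at 17 members with lower and 1 with higher H4K12bu (10.6% and 0.205% of promoters). The median difference was -104 bp over members and 0 over all promoters. The butyryl-minus-acetyl difference did not differ between histone sites at any member by limma (0 of 87, 6 at an unadjusted p under 0.05, with 0.0236% of promoters called lower).

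**Figure D5:**
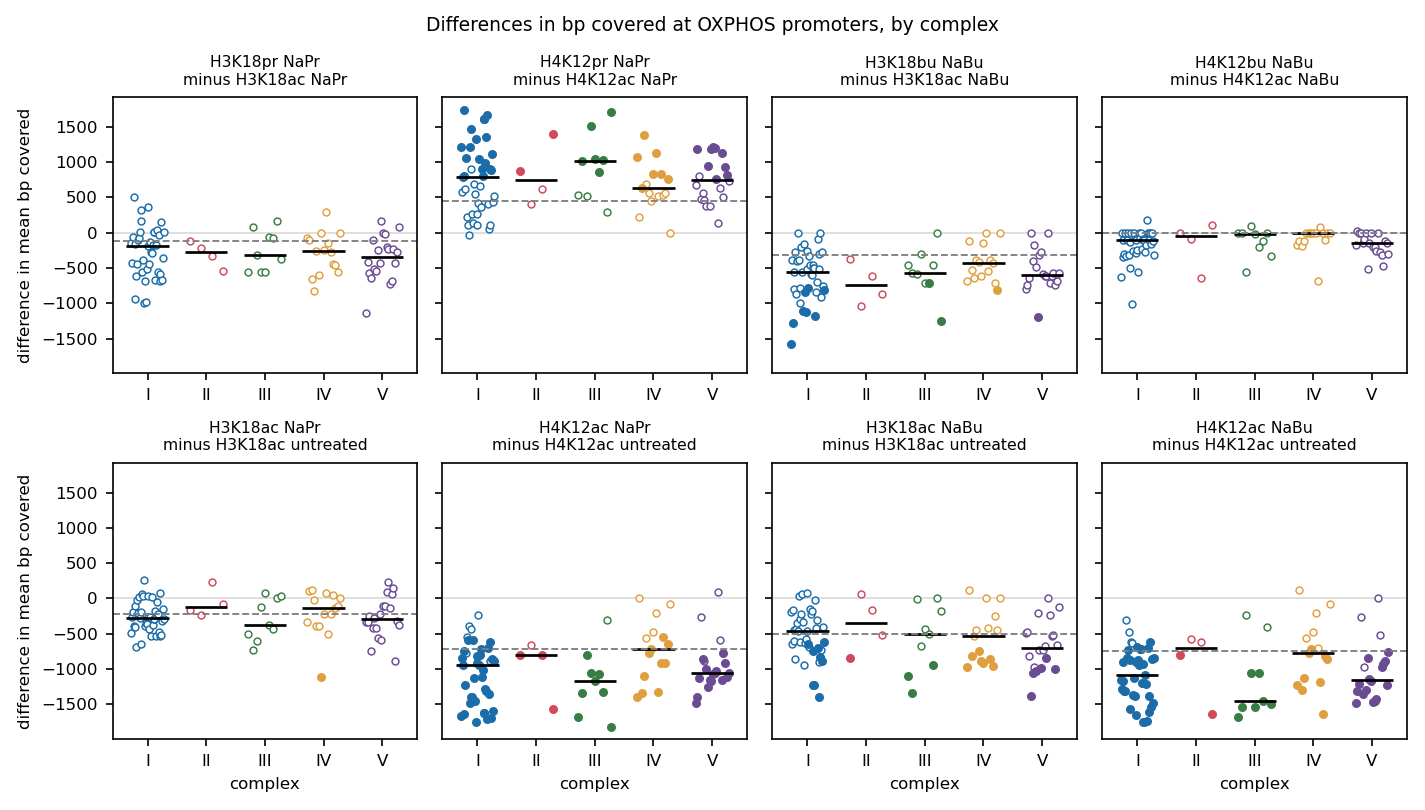
Difference in mean bp covered (vertical axis) at each of 87 OXPHOS promoters, by complex, in 8 comparisons of 2 libraries against 2. Filled points passed limma's test at an adjusted p of 0.05, bars are medians of each complex and dashed lines medians of all 16926 promoters. Filled points number 43 above 0 for H4K12pr against H4K12ac, and 70 and 69 below 0 for H4K12ac in NaPr and NaBu against untreated.

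Acetylation under treatment was compared with untreated cells. The NaPr and NaBu comparisons share the untreated libraries, and the NaPr libraries also served in the comparison with propionylation, so each is given by its own values. H4K12ac under NaPr covered fewer bp at 70 of 87 members (80.5%) and more at 0, where 56% and 0.307% of promoters were called, with a median of -1004 bp against -718.5 bp. Under NaBu it covered fewer at 69 (79.3%) and more at 0 (57.1% and 0.0473% of promoters), with medians of -1052 and -748 bp. With the full lists, H4K12ac regions covered fewer bp at most OXPHOS promoters under either fatty acid, as at more than 50% of all promoters. At equal list lengths fewer members were called, as given below. Bp covered does not measure the amount of the mark. By mass spectrometry, the paper reported no significant change in H4K12 acetylation after NaPr.

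UQCRQ had 1848 and 1787 bp of H4K12ac in untreated cells, 0 in both NaPr replicates and 170 and 480 bp in NaBu (NaPr difference -1817.5 ± 252 bp, adjusted p = 0.000373). UQCR10, a small subunit of complex III whose promoter is shown above (window chr22:29766369-29768369), had 1586 and 1769 bp untreated and 0 in all 4 treated libraries (-1677.5 ± 322 bp in each, adjusted p = 0.00117 in NaPr and 0.000877 in NaBu). Several groups had 0 bp in both replicates at UQCR10 too, which lowers the SE and the p-values as at COX7A1. NDUFS3 had 1901 and 1716 bp untreated, 0 and 189 bp in NaPr and 144 and 0 bp in NaBu (adjusted p = 0.000878 and 0.000575). Over these 3 promoters the untreated values ran from 1586 to 1901 bp and the treated values from 0 to 480 bp. NDUFB2 had 1891 bp and the whole window untreated, 200 and 197 bp in NaPr and 399 and 185 bp in NaBu (adjusted p = 0.000683 and 0.000594). NDUFC2 differed by -1756.5 ± 321 bp in NaBu and its readthrough gene by -1627.5 ± 321 bp in NaPr.

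COX7B, a subunit of complex IV on X, had 1701 and 1590 bp untreated, 1318 and 876 bp in NaPr and 0 in both NaBu replicates. The NaBu difference was -1645.5 ± 217 bp (adjusted p = 0.000132) and the NaPr difference -548.5 ± 217 bp (adjusted p = 0.0419). The NaPr call of COX7B was lost when some single libraries were left out. NDUFS8 had 1719 and 1680 bp untreated, 0 in NaPr and 331 and 0 bp in NaBu (NaPr adjusted p = 0.00115). The difference between the fatty acids was not tested, and the NDUFS8 values of NaPr and NaBu overlapped at 0. NDUFA1, NDUFA13, SDHD and NDUFS5 were the others named by size, with differences of -1663.5 bp (NDUFA1) and -1638.5 bp (NDUFA13) in NaPr and of -1639 bp (SDHD) and -1612.5 bp (NDUFS5) in NaBu.

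H4K12ac regions present in both untreated replicates and in neither treated replicate were found at 27 members in NaPr (30.3%, against 24.6% of promoters) and 25 in NaBu (28.1%, against 28.1%), the latter share equal to that of all promoters. The reverse was seen at 0 in NaPr and 0 in NaBu (0.275% and 0.0501% of promoters). Values did not overlap at 82 members in NaPr and 80 in NaBu, all lower (60.1% of promoters lower in NaPr and 60.1% in NaBu, with 0.431% and 0.16% higher). The NaPr count of limma calls fell whichever library was left out. Of the 70 NaPr calls, 35 held whichever library was left out, and of the 69 NaBu calls 41. Without H4K12ac NaBu replicate 2, 43 members were lower in NaBu (35.3% of promoters). At equal list lengths, 18 of 65 members tested were lower in NaPr and 13 in NaBu (15.9% and 16.7% of promoters). Of these, 17 and 13 were also called with the full lists.

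H3K18ac under NaPr was lower at 1 of 87 members, COX6B2, and higher at 0, where 2.04% and 0.154% of promoters were called. COX6B2 had 458 and 294 bp against 1606 and 1376 bp untreated (-1115 ± 229 bp, adjusted p = 0.0197). Next among members that did not overlap were ATP5PD (1440 and 274 bp against 1821 and 1658) and ATP5F1D (753 and 519 bp against 1402 and 1364), with adjusted p of 0.187 and 0.128. Values did not overlap at 12 members, all lower (23.3% of promoters lower and 1.36% higher), and a region in both replicates of 1 condition with none in the other was found at 0 members (0.391% of promoters for NaPr and 1.2% for untreated). This comparison again rests on H3K18ac NaPr replicate 1. Without it, 25 members were lower (28.1% of promoters), and without replicate 2, 0 were (1.22% of promoters). COX6B2 was also not called without H3K18ac untreated replicate 1. Cut to equal lengths, the lists gave 7 members lower (11.4% of promoters), ATP5ME, COX8A, NDUFA1, NDUFA11, NDUFA7, NDUFB11 and NDUFC1. The NaPr effect on acetylation was less negative at H3K18 than at H4K12 for 6 of 87 members and more negative for 0 (5.77% and 0.532% of promoters). That count was 2 without replicate 1 (2.18% of promoters) and 53 without replicate 2 (36.8%).

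H3K18ac under NaBu was lower at 26 members (29.9%) and higher at 0, where 37.3% and 0.614% of promoters were called. The median difference was -540.5 bp over members and -501.75 bp over all. NDUFS6, a zinc-binding subunit of complex I, had 590 and 9 bp against 1801 and 1606 bp untreated (-1404 ± 384 bp, adjusted p = 0.0114). ATP5F1D, the delta subunit of the ATP synthase, had 0 in both NaBu replicates against 1402 and 1364 bp (-1383 ± 238 bp, adjusted p = 0.00101). As at COX7A1, several groups had 0 bp in both replicates at ATP5F1D, which lowers the SE and the p-value. UQCR11 had 600 and 534 bp against the whole window and 1818 bp (-1342.5 ± 265 bp, adjusted p = 0.0021). The last 2 were called whichever library was left out, as were 5 of the 26 in all. The count of 26 fell without H3K18ac NaBu replicate 2 and without untreated replicate 1. H3K18ac regions in both untreated replicates and neither NaBu replicate were found at ATP5F1D and NDUFS7 (2.25%, against 6.9% of promoters) and the reverse at 0 (0.451%). Values did not overlap at 61 members (68.5%), all lower, against 52.1% of promoters lower and 1.18% higher, so that the order of the shares differed between the test and the overlap of values. NDUFC2, UQCR10, ATP5F1E and ATP5MC1 followed by size, with differences of -1226.5 to -1029.5 bp. At equal list lengths, 14 members were lower and 2 higher (24.3% and 3.06% of promoters). The effect of NaBu on acetylation did not differ between the histone sites at any member by limma (0 of 87, 15 at an unadjusted p under 0.05, with 0.0945% of promoters called higher and 0.118% lower).

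The height of regions was described by fold enrichment, the authors' ratio of pileup to local background at the summit, taking the highest in a window. Among members with a region, median fold was above that of other promoters with a region in 13 of 20 libraries and ranged from 2.18 to 12.8. COX6B2 was highest with both propionyl antibodies, at 35.0 and 22.2 for H3K18pr and 17.3 and 20.6 for H4K12pr. SDHC (19.2 and 15.9) and NDUFA12 (15 and 10.2) followed for H3K18pr, and ATP5PF (12.5 and 15.5) and NDUFA13 (13.3 and 11.6) for H4K12pr. NDUFA4, UQCRH and UQCRC2 were the 3 highest with either butyryl antibody. NDUFA4 reached 18.8 and 22.8 for H3K18bu and 21.2 and 13.4 for H4K12bu, UQCRH 14.6 and 20.2 and then 7.32 and 8.44, and UQCRC2 9.22 and 14.1 and then 5.55 and 4.81. These 3 are also among the 8 promoters covered in every library. High fold at NDUFA4 and UQCRH was not particular to butyryl marks, as both were also highest for either acetyl mark in NaBu cells. Mean fold there, for H3K18ac and H4K12ac, was 40.1 and 20.4 at NDUFA4 and 18.4 and 12.6 at UQCRH. At UQCRC2 it was 12.6 and 7.08. The NDUFA4 window also held a NaBu input region of fold 3.70. Fold depends on the depth of a library and of its input, and was not compared between libraries.

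Other genes of the pathway were followed in the same tests. Of 51 assembly factors, which insert cofactors and build the complexes, 28 had more H4K12pr than H4K12ac and 0 less, with a median difference of 842 bp (33.3% of promoters were called higher). Under treatment, 47 had less H4K12ac in NaPr and 43 in NaBu (56% and 57.1% of promoters). H3K18ac in NaBu was lower at 20, H3K18bu was below H3K18ac at 7, and H3K18pr below H3K18ac at 1 (37.3%, 16.6% and 2.22% of promoters), shares near those of all promoters. Of 16 transcription and mitochondrial DNA factors, including NRF1, GABPA, TFAM and POLG, 4 had more H4K12pr than H4K12ac (33.3% of promoters). Their median difference was 617.75 bp, against 444.5 bp over all promoters. With 16 genes, the count does not set them apart from all promoters. Less H4K12ac was called at 13 in NaPr and 15 in NaBu (56% and 57.1% of promoters). PPARGC1A, the inducible coactivator of mitochondrial biogenesis, had no region in any of the 4 untreated acetyl libraries and regions in 5 of all 20, whereas GABPA was covered in 19 and NRF1 in 18. Of CYC1, CYCS and NDUFAB1, which the symbol rule leaves out, 2 had more H4K12pr than H4K12ac and 2 less H4K12ac in NaPr as in NaBu, too few to set beside those shares. CYCS, cytochrome c, was covered in 19 libraries.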

How the data were processed

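ChIP-seq of SW480 cells was analysed from 23 deposited peak lists, 20 immunoprecipitated and 3 input. According to the submitters' processing notes and methods, the authors used bcl2fastq 2.17.1, cutadapt 1.8.1, Bowtie2 2.3.1 (GRCh38.p13) and MACS2 2.1.0 at a p-value threshold of 0.01, per library, and removed blacklisted peaks. In the deposited lists each peak carries a fold enrichment (a ratio) and −log10 p and q values, which the authors' caller set and which depend on depth. Read depth is not given in these lists, so their length stands in for precision. Some acetyl lists of NaBu cells carry a control-like tag in their names, and the sample labels were followed. Reads and the DiffBind comparisons of the study were not analysed here.

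Promoter windows were taken from GENCODE 44 (1 kb to either side of the MANE Select start, or of the gene 5′ end for 2 members without one). The MANE start was chosen after regions at gene 5′ ends had been counted. Bp covered was fitted with limma 3.58.1 (R 4.3.3, 10 group means, trend in variance). The fit used 16926 promoters with a region in at least 1 of 20 libraries, with Benjamini-Hochberg adjustment at 0.05. Bp covered is bounded by the window, and the effect of this bound on the p-values was not tested. Genes named per comparison were the called members with the largest differences (up to 8 in each direction) or, with fewer than 3 calls, the 3 largest among those not overlapping. Also named were the 3 members of highest fold per acyl mark, 9 paralog pairs, members covered in all libraries or none, and complex II. COX7A1 against H4K12ac, PPARGC1A and the members called with equal numbers of regions were singled out after their values were seen. Members, lists and tests were chosen with earlier results of these data known. Alternatives were regions with q under 0.05, the 8158 strongest regions of each library, windows of 500 bp, at least 200 bp covered, removal of regions over input regions, log2(bp + 100), no filter, a replicate block, each library left out, and the gene 5′ end as start. Matches to the longer NRF1 and YY1 sites, and values of 1 member, are not reported here. Sequences came from RefSeq on GRCh38.p14. Python 3.11.15 with pandas 2.3.3 was used.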

Additional observations from a re-analysis of the deposited data

Results flagged for a closer look

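The effect of an acyl mark or treatment differed between H3K18 and H4K12 at some members, by a limma test of the difference itself. The propionyl-minus-acetyl difference in NaPr cells was lower at H3K18 than at H4K12 for 39 of 87 members, where 28.1% of 16926 promoters were called. The effect of NaPr on acetylation was less negative at H3K18 than at H4K12 for 6 members, where 5.77% of promoters were called. Both counts include the H3K18ac NaPr libraries. Both fell without replicate 1 of that group and rose without replicate 2, as did the shares of all promoters. At equal list lengths they were 4 lower with 1 higher (479 and 36 of 8779 promoters), and 1 higher with 2 lower (269 and 324 promoters).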

How the results depend on the processing

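Calls are counts of members that passed limma's test. With regions of q under 0.05, 2 members were called for H3K18pr against H3K18ac and 21 for H3K18bu against H3K18ac. Shares of all promoters are not given for these counts, so they cannot be read against other promoters. When lists were cut to their 8158 strongest regions (equal list lengths), 4 members were called for H3K18pr against H3K18ac. Of these, 1 was higher and 3 lower, as were 194 and 339 of 8779 promoters. The counts were 9 for H4K12pr against H4K12ac and 4 for H3K18bu against H3K18ac. For H3K18ac and H4K12ac they were 7 and 18 in NaPr against untreated, and 16 and 13 in NaBu against untreated. Shares of promoters for these comparisons at equal list lengths are given above. Windows of 500 bp gave 5 (H3K18pr, where 4.47% of promoters were lower), 38 (H3K18bu, 21.5%) and 2 (H3K18ac, NaPr against untreated, 4.98%). Removing regions over input regions gave 23 (H4K12pr, 20% of promoters), 6 (H3K18bu, 7.33%), 46 (H4K12ac, NaPr against untreated, 43%) and 16 (H3K18ac, NaBu against untreated, 22.8%). On the log2 scale the counts were 2 (H3K18pr, 2.85% of promoters lower), 44 (H3K18bu, 34.4%), 4 (H4K12bu, 2%), 0 (H3K18ac, NaPr against untreated, 0.479%) and 8 (H3K18ac, NaBu against untreated, 15.6%). For H3K18bu the share of members lay below that of promoters in the test as reported and above it with windows of 500 bp and on the log2 scale. Without the filter, 1 member was called for H3K18pr, and with the gene 5′ end as start, chosen after seeing the data, 1. For these settings, too, shares of all promoters are not given. The site difference of the NaPr effect on acetylation turned at equal list lengths, to 3 calls of which 2 were lower. The cause of these changes was not tested.

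Leaving out each library in turn gave 1 to 29 calls for H3K18pr against H3K18ac, 20 to 36 for H4K12pr against H4K12ac, 1 to 19 for H3K18bu against H3K18ac, 0 for H4K12bu against H4K12ac, 0 to 25 and 41 to 52 for H3K18ac and H4K12ac in NaPr against untreated, and 6 to 26 and 43 to 57 in NaBu against untreated. H4K12pr calls fell most without H4K12ac NaPr replicate 2 (20), replicate 1 (25) or H4K12pr replicate 1 (23). H3K18bu calls fell to 1 without H3K18bu replicate 2 or H3K18ac NaBu replicate 1. H3K18ac calls in NaBu fell to 6 without H3K18ac NaBu replicate 2 and to 9 without untreated replicate 1, and H4K12ac calls in NaPr to 41 without H4K12ac NaPr replicate 2.

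With the replicate number as a block, 3 members were called for H3K18pr against H3K18ac and 23 for H3K18bu against H3K18ac. Shares of all promoters are not given for these counts. No other count of the 8 comparisons moved by over 1.5 times. Deviations of same-numbered libraries correlated by -0.0154 to 0.272 over promoters, and the labels give the numbers no shared source.

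The excess of members with a region over other promoters kept its direction under all alternatives. At equal list lengths the H3K18pr excess was 3.53 points, the H4K12pr excess 16.4 and the H3K18bu excess 6.88. For H3K18ac and H4K12ac it was 10.3 and 6.71 in NaPr, 16.0 and 13.5 in NaBu, and 21.5 for untreated H4K12ac. With q under 0.05 it was 6.43 for H3K18bu, 2.91 for H4K12bu, 15 for H4K12ac in NaPr and 30.7 and 11.1 for H3K18ac and H4K12ac in NaBu. With windows of 500 bp it was 33.3 for H4K12pr, 30.5 for H3K18ac in NaBu and 31.4 for untreated H4K12ac. With at least 200 bp covered it was 32.7 for H4K12pr, 15.3 for H4K12ac in NaPr and 29.9 for untreated H4K12ac. With the gene 5′ end as start it was 28.4 for H4K12pr, 8.99 for H3K18bu, 6.62 for H4K12bu, 20.9 and 24.0 for H3K18ac in NaPr and NaBu, and 20.3 and 23.5 for untreated H3K18ac and H4K12ac. The read depth of each library is not in the lists used here, and an uncovered promoter is one where no region passed the threshold, not one without the mark.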

Other observations

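Input regions at members lay mostly in the untreated list, as at other promoters (18.8% in the untreated input, 7.78% in NaPr and 2.96% in NaBu). Of the 40 members with a region in any input, 7 had one in 2 or more lists, namely ATP5IF1, which encodes an inhibitor of the ATP synthase, ATP5MJ, ATP5PD, ATP5PF, COX7B2, NDUFA4 and SDHA. Shares of other promoters are not given for these counts.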
